A study of Mus musculus with 16 samples.

Results

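The hearts of 8 male mice, 4 with a transgene that makes SUR2A-55 in the heart (TG) and 4 wild type (WT), were compared by RNA sequencing of polyadenylated RNA. They were picked by their labelled sex and genotype, out of 16 hearts in the study, and the other 8 were female. All animals were of the C57BL/6 strain, which is also all that TG and WT share by label, and were listed as untreated. Age, the promoter of the transgene, the number of founder lines and the relation of the WT mice to the TG mice were not stated by the labels, so the comparison covers these animals and not a set of lines. The 8 libraries fell into 2 series by the first 3 digits of their sample numbers. TG replicate 1 and WT replicates 1 to 3 were in series s479, and TG replicates 2 to 4 and WT replicate 4 were in series s488. What these numbers stand for is not stated. Since 3 of 4 TG hearts were in one series and 3 of 4 WT hearts in the other, genotype and series were partly mixed, and the genes and lists that the results turn on are given with and without a term for series. Hearts are called below WT 1 to WT 4 and TG 1 to TG 4.

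ATP-sensitive potassium (KATP) channels open when cellular ATP runs low, shorten the cardiac action potential and spare energy under stress. The channel is built from pore subunits, Kir6.2 (Kcnj11) or Kir6.1 (Kcnj8), and regulatory sulfonylurea receptors, SUR1 (Abcc8) or SUR2 (Abcc9). SUR2A-55 is a short splice form of SUR2 that has been linked to mitochondria, and its sequence is part of the Abcc9 gene. Counts per gene therefore add the transgene's RNA to that of the mouse's own Abcc9, and the 2 cannot be told apart here.

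Total counts were 31031343, 29196279, 35949527 and 29152118 in TG 1 to TG 4, and 32309836 to 39470909 in the WT hearts. The 13 mitochondrially encoded mRNAs took 28.6%, 27.5%, 29.3% and 25.1% of counts in TG 1 to TG 4 and 29.8%, 26.0%, 26.5% and 25.9% in WT 1 to WT 4, so the groups overlapped. The means were 27.6% ± 1.85 in TG and 27.0% ± 1.85 in WT (SD, n = 4 each). The difference of 0.607 percentage points did not pass a two-sided exact permutation test (p = 0.66), and the mean of the differences within series, 1.33 points, did not either (p = 0.44). With 70 arrangements the smallest p that test allows is 0.0286, and within series it is 0.0625. Nuclear copies of mitochondrial genes took a further 9.56% to 11.1% of counts in these hearts, and reads could be split between the copies and the genes. The sex labels were borne out in all 8 hearts by Xist counts of 1 to 20 and Ddx3y counts of 1866 to 3181. One library labelled TG female, replicate 4, had an Xist count of 14, against 7979 to 12123 in the other TG females, and none on 4 Y-linked genes. It had no part in the male means. It entered the male comparison through the filter on low counts, the scaling of libraries and the shared estimate of spread. Values for females are given with it and without it. Of the 8 hearts, 2 stood apart. WT 1 differed from the other WT hearts by a chi-square of 43.6 to 75.4 per degree of freedom over genes, against 7.99 to 18.2 among the other 3. Between TG hearts the values were 15.2 to 52.3, with TG 4 at 41.2 from TG 1, 19.8 from TG 2 and 52.3 from TG 3. Mitochondrial genes were part of this measure. TG 4 carried atrial markers: Myl7 was 35.3 CPM (counts per 1000000 of the TMM-adjusted library) there and 0.14 to 0.61 in the other 7 hearts. The defining heart muscle genes were high in every heart, with Myh6 at 20620 CPM in TG 4 and 15600 to 22990 elsewhere.

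Abcc9 rose in TG hearts. On chromosome 6 from 142587862 to 142702315 (GRCm38, minus strand), it stood at 546, 419, 447 and 371 CPM in WT 1 to WT 4 and at 6028, 6260.4, 6885 and 5619.6 CPM in TG 1 to TG 4. The groups were far apart, and the spread inside each was small, with means of 6198 ± 529 CPM in TG and 446 ± 74.00 CPM in WT (SD, n = 4). The log2 fold change was 3.797 (SE 0.13), a 13.9-fold difference, with a Benjamini-Hochberg adjusted p (FDR) of 2.5e-12 in edgeR's quasi-likelihood test. With series as a term it was 3.88, within series s479 (1 TG against 3 WT) 3.68, and within series s488 (3 TG against 1 WT) 4.08. Abcc9 took 0.560% to 0.634% of all counts in TG hearts and ranked 15th to 17th among genes by count, against ranks 154 to 226 in WT. It was the one gene called at an FDR under 0.05 out of 15060 tested (0.00664%), and the count stayed at 1 when WT 1 or TG 4 was left out.

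The other KATP subunits did not pass the test. Kcnj11, the main pore subunit of heart muscle, was at 86.2, 104, 117 and 124 CPM in WT 1 to WT 4 and at 107, 102, 96.2 and 129.9 CPM in TG 1 to TG 4. Its log2 fold change was 0.01, with a 95% interval from -0.22 to 0.25. Kcnj8, the vascular pore subunit, whose gene lies 16247 bases from Abcc9 on chromosome 6, was at 29.1, 34.6, 32.3 and 34.5 CPM in WT and 28.1, 33.7, 31.98 and 36.7 CPM in TG. The TG and WT values of both pore genes overlapped. For Kcnj8 the log2 fold change was 0.00 (95% interval -0.19 to 0.19). Abcc8, which encodes SUR1, was at 21.1, 28.6, 30.5 and 29.2 CPM in WT and 26.4, 28.5, 22.6 and 31.2 CPM in TG, with a log2 fold change of -0.01 (95% interval -0.27 to 0.25). The groups overlapped here too, and each interval still holds small changes in both directions. Per kilobase of exon, the WT level of Abcc9 was 53.2 CPM, that of Kcnj11 29.3, that of Kcnj8 12.8 and that of Abcc8 3.38, so Abcc9 RNA already led the 4 before the transgene added to it. Kcnj1 did not pass the filter on low counts.

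**Figure D1:**
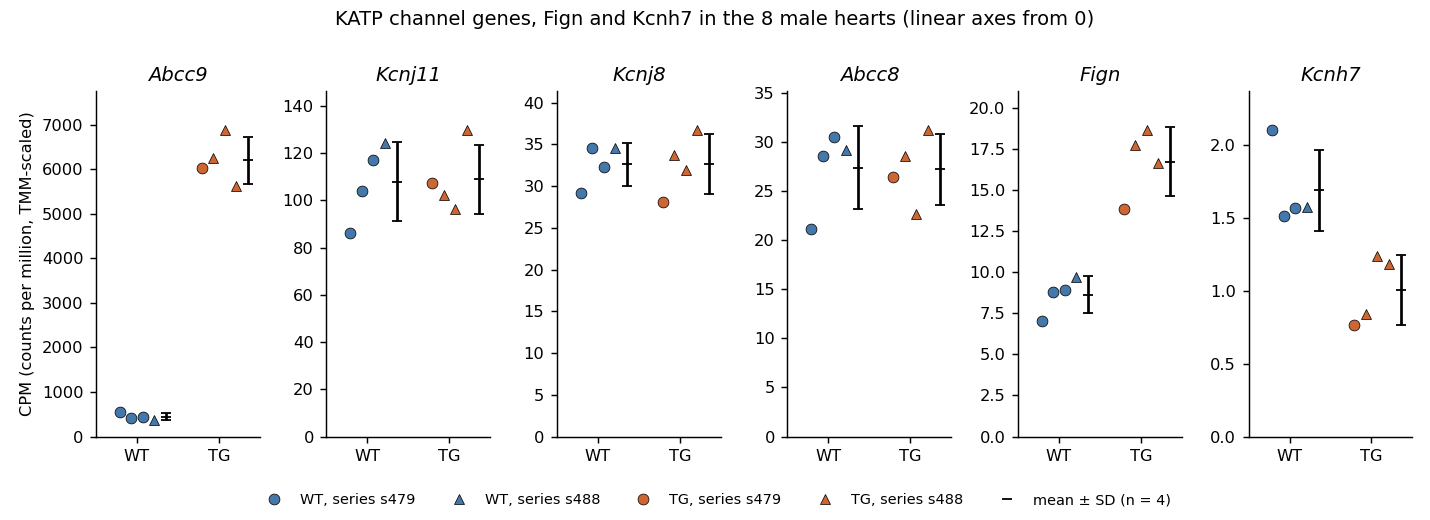
CPM of the 4 tested KATP genes, Fign and Kcnh7 in each male heart, WT in blue and TG in orange, with circles for series s479, triangles for series s488 and bars for mean ± SD (n = 4). Every TG heart lies above every WT heart for Abcc9 and Fign and below for Kcnh7, while the groups overlap for Kcnj11, Kcnj8 and Abcc8.

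Across the 14522 autosomal genes tested, the median log2 fold change was -0.01 and the median size of the change was 0.09, with a median SE of 0.13. An unadjusted p under 0.05 was found for 3.28% of autosomal genes, 209 of them higher in TG (1.44%) and 268 lower (1.85%). With series as a term in a fit of the 8 males, the count was 251 of 14106 (1.78%). In the fit of all hearts it was 881 (6.07%) without WT 1, 545 (3.75%) without TG 4, 858 (5.91%) without TG 1 and 911 (6.27%) without WT 4. For 151 genes (1.04%) the lowest TG heart exceeded the highest WT heart, and for 125 (0.861%) the reverse held. Of the 209 and 268 genes together, 91 kept a p under 0.05 with series as a term and 88 (18.4%) had a p under 0.05 for series itself, beside 11.6% of all autosomal genes. The genes described next had the smallest p in each direction. They are given as values, since the fit of all 16 hearts called none of them apart from Abcc9.

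Fign, which encodes the microtubule-severing ATPase fidgetin, came second after Abcc9. It lies on chromosome 2 from 63971507 to 64098038 (GRCm38, minus strand). It stood at 7.03, 8.82, 8.90 and 9.72 CPM in WT 1 to WT 4 and at 13.8, 17.7, 18.7 and 16.6 CPM in TG 1 to TG 4. All TG hearts were above all WT hearts, including TG 1 against WT 4, where the series are swapped. The log2 fold change was 0.95 (SE 0.16, unadjusted p 1.6e-05, FDR 0.12). With series as a term it was 0.81 (unadjusted p 3.0e-05, FDR 0.22). The series estimate of that fit, s488 against s479, was 0.30 (SE 0.11, unadjusted p 0.024). Between TG and WT, the log2 fold change was 0.74 within series s479 and 0.86 within series s488. Fign was called in 6 of 31 alternatives. Among these were DESeq2 (FDR 4.8e-05), limma-voom with quality weights (FDR 0.036) and the edgeR fit of the 8 males with the mitochondrial share as a term (FDR 0.0058). The edgeR fits of the 8 males alone (FDR 0.078) and of all hearts without TG 4 (FDR 0.34) did not call it. In the female hearts, which are other animals, the log2 fold change was 0.79 (SE 0.16, FDR 0.31), and 0.85 without the library of low Xist count.

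Kcnh7, which encodes a voltage-gated potassium channel of the ERG family, lies on chromosome 2 from 62693414 to 63184287 (GRCm38, minus strand) and was lower in TG. It was at 2.11, 1.52, 1.57 and 1.57 CPM in WT and 0.764, 0.845, 1.24 and 1.18 CPM in TG, so all TG hearts were below all WT hearts. The log2 fold change was -0.74 (SE 0.19, unadjusted p 0.0012) and -0.80 with series as a term. In the female hearts it was -1.12 (SE 0.19, FDR 0.10), and -1.24 without the library of low Xist count. Gca, which encodes the calcium-binding protein grancalcin, shares 696 bases with Kcnh7 on the opposite strand, and the strand setting of the counting is not given, so reads there may not have been told apart. Gca was at 17.8, 14.8, 15.3 and 13.9 CPM in WT and 11.6, 12.7, 13.8 and 9.88 CPM in TG. Its log2 fold change was -0.36 (SE 0.10, unadjusted p 0.0021), with all TG hearts below all WT hearts.

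Around Fign and Kcnh7, from 57693414 to 69098038 on chromosome 2 (GRCm38), 32 genes were tested and 8 had an unadjusted p under 0.05 (25.0% of the 32, beside 3.28% of autosomal genes). Fign and Kcnh7 were the genes the window was drawn around, and among the other 30 the count was 6. Higher in TG were Fign and Scn2a, and lower were Kcnh7, Gca, Pla2r1, Scn3a, Cobll1 and Tanc1. With series as a term 4 had a p under 0.05, and without WT 1 or without TG 4 the count was 6 each time. The window was chosen with earlier results of these data known, so the count is a description.

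Scn3a, which encodes a neuronal sodium channel, was at 2.17, 1.95, 2.11 and 2.03 CPM in WT and 1.74, 1.09, 1.601 and 1.42 CPM in TG (log2 fold change -0.49, SE 0.18). Its neighbour Scn2a, another neuronal sodium channel gene, was at 0.496, 0.309, 0.342 and 0.254 CPM in WT and 0.555, 0.528, 0.513 and 0.643 CPM in TG (log2 fold change 0.68, SE 0.23). Both separated the groups without overlap, in opposite directions, at levels near 1 CPM. Pla2r1, a phospholipase A2 receptor gene, was at 7.13, 5.82, 5.59 and 5.41 CPM in WT and 4.89, 4.47, 4.50 and 4.97 CPM in TG (log2 fold change -0.34, SE 0.12). Cobll1 was at 84.8, 81.3, 75.8 and 75.2 CPM in WT and 68.8, 69.3, 72.2 and 64.3 CPM in TG (log2 fold change -0.21, SE 0.10). Again no TG heart reached the lowest WT heart for either gene. Tanc1, a scaffold protein gene, overlapped between the groups, with 33.5 to 37.0 CPM in WT and 30.1 to 35.2 CPM in TG. Ifih1, which encodes the RNA sensor MDA5, and Grb14, an adaptor that binds the insulin receptor, had log2 fold changes of -0.19 and -0.15 with unadjusted p of 0.059 and 0.061. In the female hearts 6 of the 8 genes had the same direction as in males, and 5 of these had a p under 0.05, or 4 without the library of low Xist count. Of all autosomal genes, 51.7% had the same direction and 8.35% a p under 0.05 in females. Scn2a was of the opposite direction there, at -0.45, with an unadjusted p of 0.0025 for the difference between the sexes, or -0.37 and 0.0054 without that library.

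**Figure D2:**
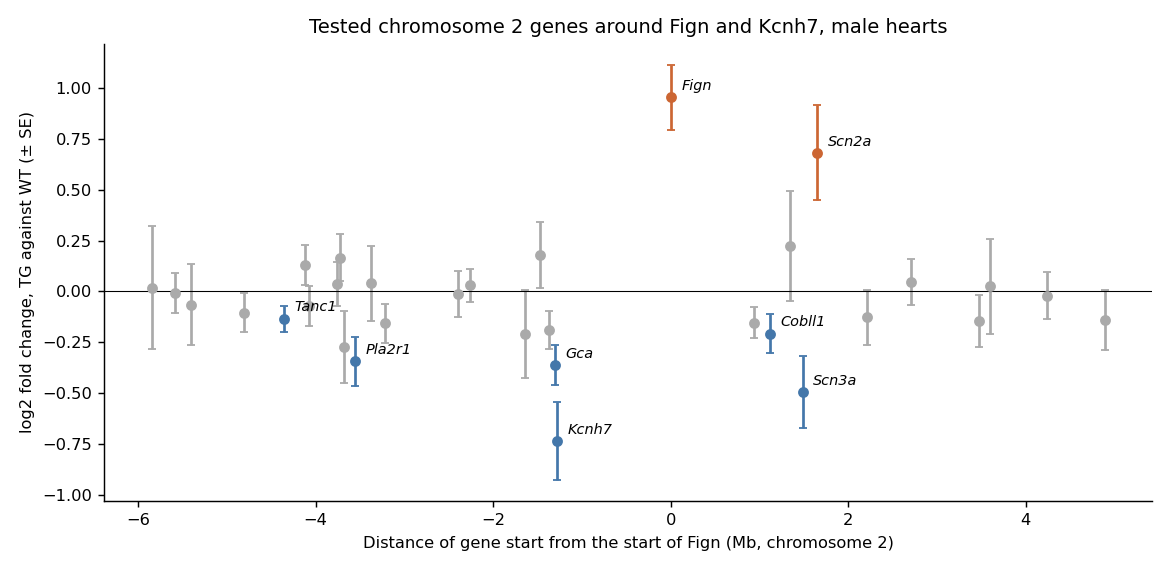
Log2 fold change, TG against WT in male hearts (points, with SE bars), of the 32 tested genes on chromosome 2, by the distance in Mb of each gene's start from that of Fign. Genes with an unadjusted p under 0.05 are named, in orange where higher in TG (Fign and Scn2a) and in blue where lower (6 genes).

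Among the 10 genes of smallest p named as higher in TG, the largest estimate after Abcc9 was that of Cyp26b1. This gene for an enzyme that breaks down retinoic acid was at 1.67, 2.47, 1.17 and 3.53 CPM in WT 1 to WT 4 and at 5.97, 6.79, 4.80 and 4.30 CPM in TG 1 to TG 4. The groups did not overlap, but the difference was larger within series s479, at 1.76, than within series s488, at 0.58. The log2 fold change was 1.29 (SE 0.35, unadjusted p 0.002). Yipf1, a Golgi membrane protein gene, was at 10.7, 10.1, 9.33 and 10.8 CPM in WT and 11.8, 13.1, 12.2 and 12.1 CPM in TG, a log2 fold change of 0.27 (SE 0.08) with no overlap. Hmgn3, which encodes a nucleosome-binding protein, was at 2.97, 2.63, 2.196 and 2.89 CPM in WT and 3.51, 3.62, 3.47 and 3.99 CPM in TG, a log2 fold change of 0.45 (SE 0.14), also with no overlap. Kank4 was at 0.83 to 0.90 CPM in WT and 1.08 to 1.73 CPM in TG. AW112010, an interferon-inducible transcript, was at 8.96 to 12.2 CPM in WT and 12.3 to 16.4 CPM in TG. Olfml1 overlapped between the groups and separated the series instead, with every s488 heart above every s479 heart and a series estimate of 0.53 (unadjusted p 0.0061).

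Polr3f, which encodes a subunit of RNA polymerase III, and Rbbp9, a serine hydrolase gene, lie tail to tail on chromosome 2 with 269 bases between them, at a distance from Fign. Polr3f was at 16.3, 13.9, 13.5 and 12.6 CPM in WT and 21.2, 15.2, 21.7 and 19.2 CPM in TG. Rbbp9 was at 12.2, 12.96, 11.95 and 12.3 CPM in WT and 17.9, 12.8, 20.8 and 17.7 CPM in TG. TG 2 was the heart that kept the groups overlapping for both genes, and the other 3 TG hearts were above all WT hearts. The log2 fold changes were 0.46 (SE 0.15) and 0.49 (SE 0.16), and 0.56 and 0.51 with series as a term.

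Among the 10 genes named as lower in TG, Rgs4 had the smallest p. It encodes a regulator that shortens signalling by G proteins, and it was at 22.4, 20.9, 19.7 and 18.4 CPM in WT and 17.8, 16.5, 17.03 and 15.2 CPM in TG. The log2 fold change was -0.29 (SE 0.07, unadjusted p 0.0011), with no overlap. Kcnv2, a silent subunit that modifies voltage-gated potassium channels, was at 18.5, 17.4, 18.6 and 21.96 CPM in WT and 16.4, 12.7, 14.3 and 12.9 CPM in TG. All TG hearts were below all WT hearts, and the log2 fold change was -0.45 (SE 0.12), -0.15 within series s479 and -0.72 within series s488. Vegfa, the main growth factor for blood vessels, was at 207, 209, 246 and 209 CPM in WT and 191, 178, 139 and 183 CPM in TG. Its log2 fold change was -0.33 (SE 0.10, unadjusted p 0.0035), again with no overlap, and -0.26 with series as a term. Nudt17, Prdm10 and P3h2, which encode a nudix hydrolase, a zinc finger protein and a collagen prolyl hydroxylase, also separated the groups, with log2 fold changes of -0.57, -0.32 and -0.63. Slc7a1, a carrier of cationic amino acids, was at 84.6, 64.7, 68.9 and 52.2 CPM in WT and 50.6, 43.8, 53.4 and 49.1 CPM in TG, with WT 4 inside the TG range. Nav2, a neuron navigator gene, was at 38.1, 49.9, 54.1 and 41.9 CPM in WT and 40.96, 32.9, 33.4 and 33.7 CPM in TG, with WT 1 below TG 1. Their log2 fold changes were -0.46 and -0.39, and -0.31 and -0.27 with series as a term.

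Of these 20 genes, counting Abcc9, Fign, Kcnh7 and Gca, 16 had a p under 0.05 with series as a term (1.78% of autosomal genes), 2 had a p under 0.05 for series (11.6%), and 15 did not overlap between the groups (1.04% above and 0.861% below). All 20 had the same direction within both series. The choice by p favours these counts, and may favour that for series too, since genotype and series were partly mixed. Nothing is read from any of them. Apart from Abcc9 and Fign, each had an FDR of 0.9995. In the female hearts 15 of the 20 had the same direction as in males, 9 of the 10 higher genes and 6 of the 10 lower ones, beside 51.7% of all autosomal genes and 61.6% of those with a p under 0.05. Without the library of low Xist count the count was again 15, beside 49.6% and 55.4%.

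Among mitochondrial proteins linked to potassium, calcium and uncoupling, 17 genes were tested, none passed the FDR, and Nnt had an unadjusted p under 0.05. Nnt encodes the transhydrogenase that makes NADPH in mitochondria, and a deletion in it marks the C57BL/6J substrain. The labels name no substrain. It was at 83.4, 118, 119 and 109 CPM in WT and 69.7, 89.8, 85.8 and 98.1 CPM in TG, with WT 1 below 3 of the TG hearts. The log2 fold change was -0.32 (SE 0.14, unadjusted p 0.031) and -0.43 with series as a term. In females it was 0.48, or 0.41 without the library of low Xist count. The unadjusted p for the difference between the sexes was 0.00066, or 0.0020 without it, with no gene called in that comparison.

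The 13 mitochondrially encoded mRNAs were all higher in TG by their estimates, with a median log2 fold change of 0.07, and 0.12 with series as a term, beside -0.01 for all autosomal genes. None passed the FDR and 2 had an unadjusted p under 0.05, mt-Atp6 (0.25) and mt-Co3 (0.36), which encode subunits of ATP synthase and of cytochrome c oxidase. The sign of mt-Co3 turned within series s479, at -0.05. Of the 13, 9 were higher without TG 1 (median 0.04) and 10 without WT 4 (median 0.05). Without WT 1 there were 12 (median 0.14), and without TG 4 all 13 (median 0.13). Since the 13 are read off one genome and share their nuclear copies, they are not independent. Of the nuclear genes for Complex I, 29 of 36 were higher and 7 lower (median 0.05), and for Complexes III to V 24 of 33 were higher (median 0.05). None of these had an unadjusted p under 0.05. Genes of glucose use (12 of 20 higher, median 0.02), antioxidant defence (13 of 17 higher, median 0.02) and mitochondrial biogenesis and dynamics (14 of 17 lower, median -0.04) had none either. Fatty acid oxidation genes had 7 higher and 15 lower (median -0.03), with 19 of 22 higher once series was a term (median 0.06), and none had a p under 0.05.

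Ion channel genes beyond KATP were mixed. Of 18 cardiac potassium channel and pacemaker genes, 7 were higher and 11 lower, none passed the FDR and 4 had an unadjusted p under 0.05, beside 3.28% of all autosomal genes. These were Kcnh7 and Kcnv2, described above, Hcn4, the pacemaker channel, and Kcnd3, a channel of the transient outward current. The list was written with earlier results of these data known, and Kcnh7 and Kcnv2 were named above for their small p. The count is therefore a description. Hcn4 was at 5.92, 4.61, 6.79 and 8.02 CPM in WT and 7.08, 7.64, 7.91 and 9.81 CPM in TG. Kcnd3 was at 25.7, 23.4, 25.7 and 20.4 CPM in WT and 24.2, 20.4, 20.5 and 17.2 CPM in TG. The groups overlapped for both genes, while every s488 heart was above every s479 heart for Hcn4 and below for Kcnd3. The estimates were 0.18 and -0.06 with series as a term. Genes for calcium handling (7 of 16 higher, median -0.01), the sarcomere (6 of 20 higher, median -0.03) and the fetal and hypertrophy programme (5 of 13 higher, median -0.03) had no member with a p under 0.05.

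Several gene groups had medians away from 0 that moved when series or a single heart was taken out. Among 26 genes of the cell cycle, 24 had lower estimates (median -0.39), none passed the FDR, and with series as a term 15 were lower and the median was -0.02. Of 18 circadian clock genes 13 were higher (median 0.24), and with series as a term 8 were (median -0.02). Of 18 targets of the fatty acid sensor PPAR 17 were lower (median -0.19), led by the mitochondrial carrier Slc25a34 at -0.35 (unadjusted p 0.029), and the median was -0.05 with series as a term. Ribosomal protein genes were higher for 32 of 37 (median 0.08), for 12 of 37 with series as a term, and for 21 of 37 without TG 4. All 16 tested genes for MHC molecules of class I and II had higher means in TG (median 0.30), with H2-T22 the one at an unadjusted p under 0.05. Their summed level was 524 to 727 CPM in WT, and 1054 CPM in TG 4 against 623 CPM or more in the other TG hearts. Without TG 4, 12 of 16 were higher and the median was 0.06. H2 genes are closely related copies of each other, so their single values are uncertain. Inflammation genes had 9 of 12 higher (median 0.14), and 6 of 12 without TG 4. Interferon response genes had 11 of 24 higher (median -0.02), with Gbp3, a guanylate-binding protein gene, at 0.39 (unadjusted p 0.043). Extracellular matrix genes had 20 of 32 lower (median -0.12), and immediate early genes 7 of 13 lower (median 0.00, and -0.25 with series as a term), with no p under 0.05. Hypoxia response genes had 9 of 13 lower (median -0.04), with Vegfa the one at a p under 0.05. Heat shock and ER chaperone genes had 7 of 26 higher and 19 lower (median -0.10, and -0.05 with series as a term), with Pdia6, a protein disulfide isomerase, at -0.17 (unadjusted p 0.038).

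**Figure D3:**
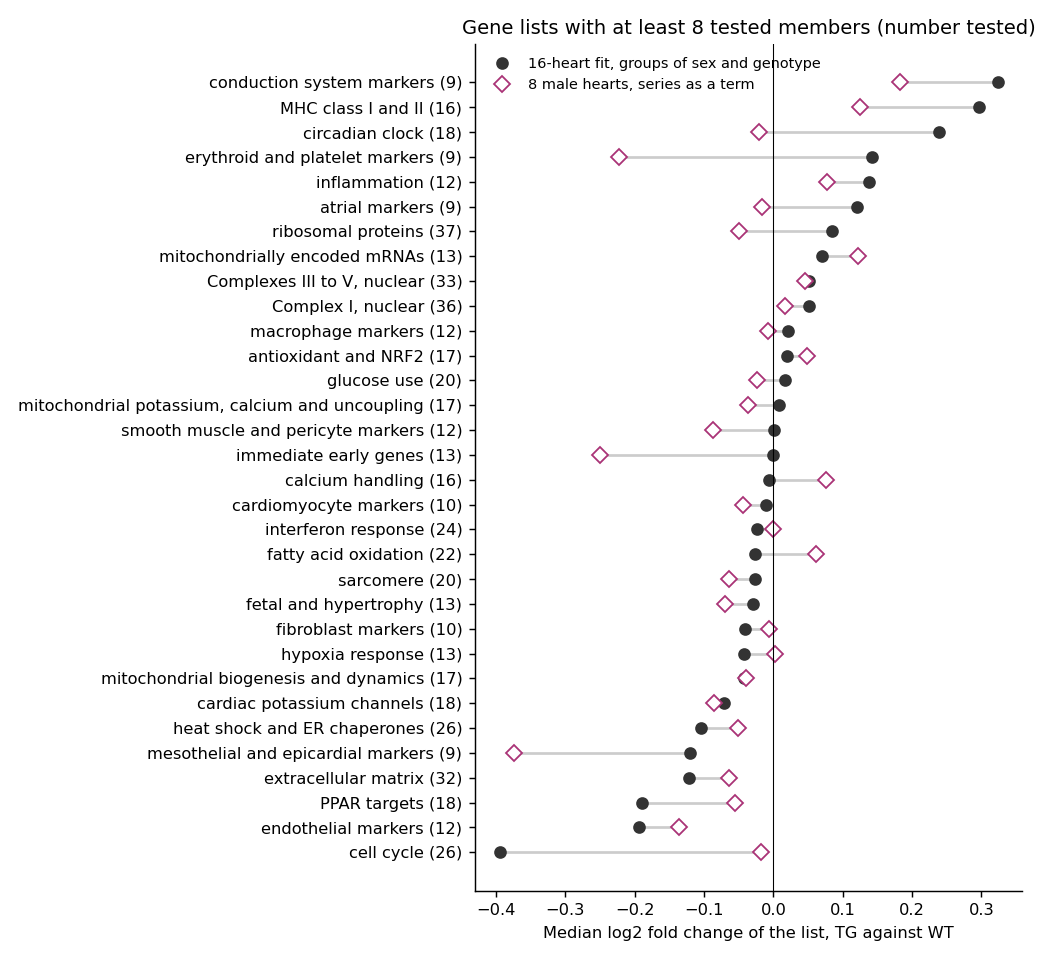
Median log2 fold change, TG against WT in male hearts, of each gene list with at least 8 tested members (number in brackets), from the fit of all 16 hearts (filled circles) and from the 8 males with series as a term (open diamonds). The cell cycle list moves from -0.39 to -0.02 and the clock list from 0.24 to -0.02 between the fits, while the endothelial list stays at -0.19 and -0.14.

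Among markers of the other cell types of the heart, Abcc9 itself was the one gene that passed the FDR. Of 12 endothelial markers 11 were lower in TG (median -0.19, -0.14 with series as a term and -0.24 without TG 4). Their summed level was 913 to 1080 CPM in WT and 808 to 918 CPM in TG, so the ranges met at the edge. In whole hearts, fewer cells of a type and less RNA per cell cannot be told apart. No defining endothelial marker was at 0 in any heart. Cdh5, the cadherin of endothelial junctions, was at 139.8, 160.4, 160.4 and 134 CPM in WT and 135, 136, 119 and 124 CPM in TG (log2 fold change -0.21, unadjusted p 0.034). Vwf, von Willebrand factor, was at 40.5, 45.3, 42.02 and 41.02 CPM in WT and 29.6, 34.4, 25.6 and 42.2 CPM in TG, where TG 4 alone reached the WT range. Kdr, a receptor for Vegfa, was at 202, 189, 194 and 151 CPM in WT and 164, 135, 154 and 150.2 CPM in TG, with every s488 heart below every s479 heart. None of the 12 passed the FDR. Of the 10 heart muscle markers 4 were higher and 6 lower (median -0.01), of 10 fibroblast markers 5 and 5 (median -0.04), and of 12 macrophage markers 6 and 6 (median 0.02), none with a p under 0.05. The smooth muscle and pericyte list holds Abcc9 itself, and its other 11 members had no p under 0.05. Erythroid and platelet markers were higher for 7 of 9 (median 0.14), and for 2 of 9 with series as a term (median -0.22). Mesothelial markers had 4 of 9 higher (median -0.12), and none of 9 with series as a term (median -0.37). Conduction system markers were higher for 8 of 9 (median 0.32, and 0.08 without TG 4), with Hcn4 the one at a p under 0.05. Among atrial markers, Myl7, Myl4, Sln and Mybphl were carried by TG 4, and the list's median went from 0.12 to -0.06 without it. The summed level of the atrial list was 60.5 to 124 CPM in WT and 55.6 to 219 CPM in TG. The part of these atrial levels in the gene results was not tested.

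The sample number series was then compared as such, with genotype as a term, in the same 8 hearts. Here 84 of 14106 autosomal genes passed an FDR under 0.05 (0.595%), 32 higher in series s488 (0.227%) and 52 lower (0.369%), and 1636 had an unadjusted p under 0.05 (11.6%). Every s488 heart was above every s479 heart for 606 genes (4.17%) and below for 805 (5.54%). In the same fit, genotype had 1 call, Abcc9. In a principal component analysis the first component, with 35.7% of the variance, parted neither the series nor the genotypes. It put WT 1, TG 3 and TG 1 between 15.7 and 34.4 and the other hearts between -32.9 and -2.48. WT 1, TG 3 and TG 1 also had the largest mitochondrial mRNA shares (29.8%, 29.3% and 28.6%), and a link was not tested. The second component, with 18.0% of the variance, put the s479 hearts between -21.2 and -0.59 and the s488 hearts between 2.54 and 25.5. TG 1 and WT 4 are the hearts that part genotype from series. Without TG 1 no gene was called by edgeR (851 at an unadjusted p under 0.05) and without WT 4 only 3 were, out of 86 over all genes tested.

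**Figure D4:**
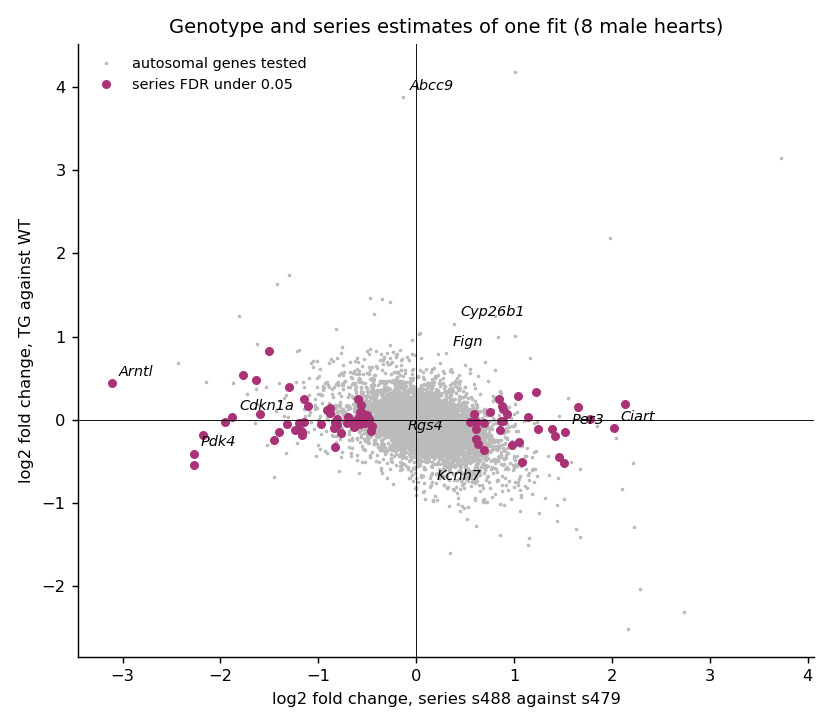
Log2 fold changes of autosomal genes from one fit of the 8 male hearts, series s488 against s479 on the x axis and TG against WT on the y axis, with genes called for series in purple. Abcc9 stands at 3.88 on the genotype axis near 0 for series, while Arntl, Ciart, Per3, Pdk4 and Cdkn1a spread along the series axis.

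Clock genes led the series difference. In the heart as elsewhere, CLOCK and ARNTL (BMAL1) switch on genes through E-boxes, among them the Per and Cry repressors and the PAR bZIP factors Dbp, Tef and Hlf, which act through D-boxes, and the loop runs with the time of day. The labels give no hour of tissue collection. Of 18 clock genes tested 10 passed the FDR, 8 higher in s488 and 2 lower, beside 0.227% and 0.369% of autosomal genes. The windows before the starts of 9 of these 10 genes were found in RefSeq (GRCm38.p6), each 250 bases long. Shown are those of Per3 and Ciart, which had the most matches, and a window of Arntl, which went the other way. Any bases inside the GENCODE gene were left off. Capitals mark the E-box CACGTG or the D-box TTATGNAA, read on both strands.
Per3 (chr4:151044666-151044915, minus strand): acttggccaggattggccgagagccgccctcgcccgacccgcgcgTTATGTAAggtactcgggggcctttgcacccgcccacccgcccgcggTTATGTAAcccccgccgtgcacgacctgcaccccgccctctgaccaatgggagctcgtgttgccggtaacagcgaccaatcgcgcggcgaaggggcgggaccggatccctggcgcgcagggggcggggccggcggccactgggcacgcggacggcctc
Ciart (chr3:95882252-95882478, minus strand): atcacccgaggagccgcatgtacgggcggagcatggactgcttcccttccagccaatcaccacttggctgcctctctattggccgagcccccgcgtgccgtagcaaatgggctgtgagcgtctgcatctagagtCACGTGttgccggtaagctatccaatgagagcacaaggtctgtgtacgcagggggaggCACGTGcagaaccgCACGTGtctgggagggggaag
Arntl (chr7:113207215-113207464, plus strand): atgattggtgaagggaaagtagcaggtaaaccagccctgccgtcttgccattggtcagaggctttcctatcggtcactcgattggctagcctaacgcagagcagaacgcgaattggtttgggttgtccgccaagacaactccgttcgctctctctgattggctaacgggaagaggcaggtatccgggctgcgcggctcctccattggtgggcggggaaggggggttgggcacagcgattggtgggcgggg
The Per3 window held 2 D-boxes and the Ciart window 3 E-boxes, and the letters of neither motif are in the Arntl window. Among all 32851 windows of this length, 6.02% held the E-box and 3.07% the D-box. Of the 9 clock genes with a window, 3 held an E-box and 1 a D-box. Such matches are a description of the letters and not of binding.

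Per3, a repressor of the loop, was at 17.4, 22.9, 20.2 and 56.4 CPM in WT 1 to WT 4 and at 17.9, 58.1, 47.4 and 50.9 CPM in TG 1 to TG 4. TG 1 sat with WT 1 to WT 3, and WT 4 sat with TG 2 to TG 4, so the values split by series and not by genotype. The log2 difference, s488 against s479, was 1.52 (SE 0.11, FDR 0.0011), and the genotype term of the same fit was -0.14. Arntl, the activator, was at 11.2, 6.16, 9.76 and 0.812 CPM in WT and 10.6, 1.51, 1.69 and 1.116 CPM in TG, lower in s488 with a log2 difference of -3.11 (SE 0.26, FDR 0.0012). Its partner Clock fell as well (-0.91, FDR 0.027). Ciart, another repressor, was at 3.38, 5.63, 3.08 and 14.6 CPM in WT and 3.26, 18.6, 11.4 and 15.2 CPM in TG, a rise of 2.02 (SE 0.24, FDR 0.006). The same split held for Dbp, at 23.4, 39.9, 30.9 and 73.4 CPM in WT and 25.9, 74.4, 66.1 and 86.7 CPM in TG (log2 difference 1.39). Hlf (0.93), Tef (0.86), Per2 (1.42), Bhlhe41 (0.75) and Cry2 (0.61) rose in s488 too. For all 10 genes the s488 hearts and the s479 hearts did not overlap, beside 4.17% of autosomal genes above and 5.54% below. The 10 were chosen by their FDR for series in these same hearts, which favours that outcome, so nothing is read from it.

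Outside the clock, the genes of smallest p that were higher in s488 were Gm45819, a predicted gene (1.78), Tuba4a, an alpha tubulin (0.98), and Mthfd1l, a mitochondrial enzyme of folate metabolism (2.13). Those lower in s488 were Cdkn1a, the cell cycle inhibitor p21 (-1.88), the magnesium carrier gene Slc41a3 (-1.20), the desaturase gene Scd4 (-1.59) and Adamts9, a matrix protease (-0.83). Cdkn1a was at 24.9, 26.8, 21.1 and 7.67 CPM in WT and 28.6, 6.83, 5.22 and 8.02 CPM in TG. Pdk4, the kinase that shuts glucose carbon out of the citric acid cycle, was at 658, 781, 752 and 229 CPM in WT and 836, 62.2, 147 and 130.5 CPM in TG, lower in s488 with a log2 difference of -2.27 (SE 0.29, FDR 0.0081). In both, TG 1 was the highest of all 8 hearts, and WT 4 was nearer to the other s488 hearts than to any s479 heart. Of 26 cell cycle genes 23 had lower and 3 had higher estimates in s488. Of these, 5 passed the FDR, all lower, beside 0.369% of autosomal genes, namely Mki67 (-1.17), Top2a (-1.18), Prc1 (-1.17), Ccnb1 (-1.77) and Cdk1 (-1.15). Mki67, the marker of dividing cells, was at 11.99, 12.2, 12.04 and 5.03 CPM in WT and 9.998, 3.55, 5.86 and 4.63 CPM in TG. Wee1, a mitotic inhibitor, rose in s488 (0.89).

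**Figure D5:**
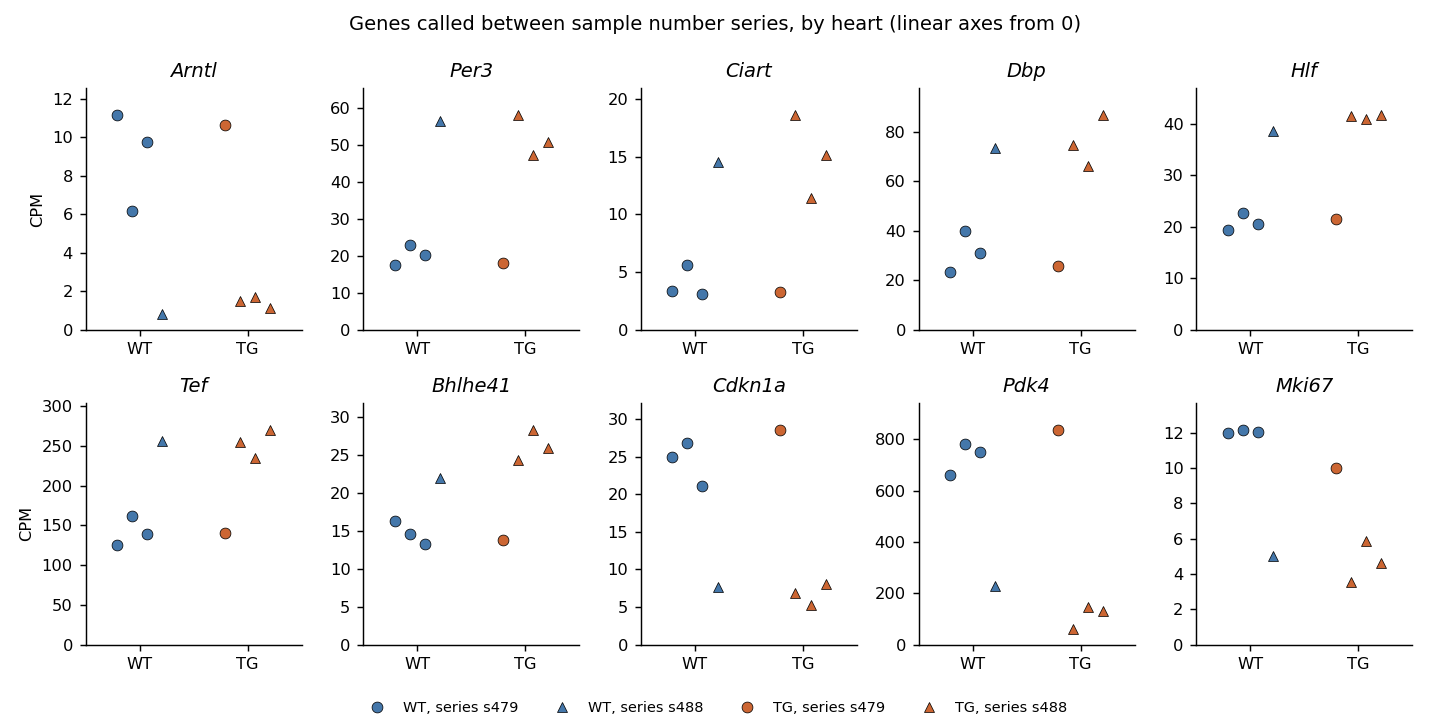
CPM of 10 genes called between the sample number series, in each male heart, with WT in blue, TG in orange, circles for series s479 and triangles for series s488. In every panel TG 1 lies with WT 1 to WT 3 and WT 4 lies with TG 2 to TG 4, for example at 836 CPM of Pdk4 in TG 1 and 229 CPM in WT 4.

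The effect of the transgene in males was last set against that in females, which are the remaining 8 hearts and include the library labelled TG female whose Xist count was low. The difference between the sexes passed the FDR for 0 of 15060 genes (0%) in edgeR, and likewise in DESeq2 and limma-voom, while 682 autosomal genes had an unadjusted p under 0.05 (4.70%). Without that library edgeR called 0 genes too, with 669 at an unadjusted p under 0.05. For Abcc9 the log2 fold change was 3.797 in males and 3.88 in females, a difference of -0.08 (SE 0.16). Without that library the female value was 3.96 and the difference -0.16 (SE 0.15). The female TG hearts had sample numbers in series s477, s479, s479 and s488 and the female WT hearts in series s479, s488, s493 and s499, so the series lean the other way between the genotypes in females, and with earlier or later series as a term the count for the difference between the sexes was 0 as well.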

How the data were processed

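RNA of the 16 frozen hearts was extracted with a column DNA digest and made into stranded mRNA libraries, per the labels' protocols. The submitters' processing notes name bcl2fastq 2.20.0.422, STAR, RSEM, R 3.6.2 and mm10, with no role or order. The authors deposited estimated counts per gene, as whole numbers, for 51912 genes in 16 libraries. How they were rounded, the annotation release and the strand setting are not stated in the labels or headers. Gene positions came from the GENCODE annotation of GRCm38, and promoter windows from RefSeq GRCm38.p6, where 9 of 10 clock genes matched and Per2 did not.

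The counts as deposited were tested with edgeR 4.0.16 in R 4.3.3 (TMM scaling, filterByExpr on the 4 groups of sex and genotype, robust quasi-likelihood fit, 15060 genes tested, 14522 autosomal). Each group had its own mean, all 16 hearts shared the spread, and p-values were adjusted by Benjamini-Hochberg over all tested genes, with calls at an FDR under 0.05. Series was fitted with genotype in the 8 males (14628 genes tested). CPM are counts per 1000000 of the TMM-adjusted library. A difference of 1 value per heart was tested by exact permutation over hearts (scipy 1.17.1). The labels describe separate samples, and p-values measure the spread between these samples. No 2 male libraries of the same genotype agreed within sampling noise, and other pairs were not compared.

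Named were the KATP genes, the 10 autosomal genes of smallest p in each direction (mean log2 CPM of at least 0 in males, no predicted genes), the chromosome 2 genes within 5 Mb of Fign or Kcnh7, Nnt, up to 4 genes of smallest p per list, the 5 of smallest p in each direction for series, and any gene called under another setting listed at the outset. The other called clock and cell cycle genes, Pdk4, Wee1 and the genes of the closing section were named after their values were seen. The hearts, genes and lists were chosen with earlier results of these data known. Alternatives were DESeq2 1.42.0, limma 3.58.1 (voom with quality weights), other scalings and filters, terms for series or mitochondrial share, the males alone, each series alone, and each heart left out. Those of the series comparison, of the comparison between the sexes, leaving out each female heart (also for the female values), and DESeq2 with series in the males were chosen after seeing the data. The code was tested on simulated data.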

Additional observations from a re-analysis of the deposited data

Results flagged for a closer look

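In 28 of 214 sets of 4 hearts examined (13.1%), 1 heart lay far from the other 3 of its group. Chance gives about 1 in 20, but many of these genes were named because they split by series, and in such genes TG 1 and WT 4 stand apart by that choice, so the share is not read against it. Of the 28, 13 were TG 1, the only TG heart of series s479, and 8 were WT 4, the only WT heart of series s488.

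TG 1 stood above the other TG hearts for Arntl (10.6 CPM), Cdkn1a (28.6 CPM), Pdk4 (836 CPM), Rcan1 (69.7 CPM), Prc1 (3.33 CPM), Cdk1 (2.22 CPM), Slc41a3 (60.1 CPM), Adamts9 (27.7 CPM) and Nav2 (41.0 CPM). It stood below them for Cry2 (28.5 CPM) and Hlf (21.5 CPM). Its mean log2 CPM of the cell cycle genes was 1.21, against 0.57 to 0.62 in the other TG hearts. That of the erythroid and platelet markers was 3.27, against 3.96 to 4.04.

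WT 4 stood above the other WT hearts for Per3 (56.4 CPM), Hlf (38.7 CPM), Wee1 (15.7 CPM), Tuba4a (685 CPM) and Mthfd1l (2.23 CPM), and below them for Mki67 (5.03 CPM) and Fbn1 (50.8 CPM). Its mean log2 CPM of the mesothelial and epicardial markers was 2.17, against 0.69 to 0.79.

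TG 4 had a mean log2 CPM of 3.61 for the atrial markers, against 0.58 to 0.81 in the other TG hearts, of 3.10 for immediate early genes, against 2.35 to 2.38, and of 5.10 for Y-linked genes, against 5.51 to 5.55. WT 1 had the highest WT values of Kcnh7 (2.11 CPM) and P3h2 (4.12 CPM), and a mitochondrial mRNA share of 29.8%, against 25.9% to 26.5% in the other WT hearts. WT 3 had the highest value of Vegfa (246 CPM).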

How the results depend on the processing

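Abcc9 was called in all 31 alternatives, with log2 fold changes of 3.68 to 4.08. The count of genes called between TG and WT was 1, and it was 2, with Fign as the other, under the DESeq2 Wald test, under limma-voom with quality weights, with a term for mitochondrial share, and in DESeq2 on the 8 males with series as a term. It was 1 to 2 when hearts were left out, with 2 without female WT 2 or female WT 4. These female hearts entered the male comparison only through the filter, the scaling and the spread. The estimates of the KATP partners lay near 0 and changed sign. Kcnj11 was at -0.0054 with library size alone, -0.073 with limma-voom, -0.055 with series as a term in the 8 males, -0.030 with earlier or later series in the 16 hearts, -0.18 within series s488, -0.053 in DESeq2 with series, and -0.076 to 0.089 with a heart left out. Kcnj8 was at -0.019, -0.042, -0.098 and -0.050 under the first 4 of these, at -0.19 within series s479 and -0.017 within series s488, at -0.095 in DESeq2 with series, and at -0.057 to 0.069 with a heart left out. With the mitochondrial share as a term Abcc8 was at 0.067, and its range was -0.11 to 0.074 with a heart left out. Within series s479, mt-Co3 was at -0.053 and Slc25a34 at 0.0087. The cause of these changes was not tested.

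The 86 genes called for series over all tested genes became 239 without a genotype term, 41 with library size alone, 212 with no filter, 242 in DESeq2 and 764 in limma-voom. In WT hearts alone (1 against 3) the count was 0 and in TG hearts alone (3 against 1) it was 0, with the lone heart assumed to vary like the other groups and 1028 and 695 genes at an unadjusted p under 0.05. It ranged from 0 to 157 with a male heart left out, being 0 without TG 1, 3 without WT 4, 44 without WT 2, 35 without WT 3, 31 without TG 2 and 57 without TG 4. All 86 genes kept their direction in each of these, but they were chosen in the same hearts, which favours that outcome, so nothing is read from it. The difference in mitochondrial share was 0.047 to 1.52 percentage points over its alternatives, and none had a p under 0.05 by exact permutation. Within series, or with a heart left out, so few arrangements could not give such a p. The differences in each series alone had no test. No paired analysis was possible because the replicate numbers only follow the order of the samples. With 4 hearts a group and counting noise at genes near 1 CPM, small changes were not detectable.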
